A study of Mus musculus with 8 samples.

Results

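The genes described here make, move, break down and sense prostaglandin E2, and they were chosen by name, as 10 members of that pathway, out of 39179 genes in the count table. They are Pla2g4a, Ptgs1, Ptgs2, Ptges, Ptges2, Ptges3, Slco2a1, Hpgd, Ptger2 and Ptger4. RNA was sequenced from 8 mouse libraries on an inbred C57BL6/J background. The 3 wild-type libraries came from small intestine of VilCreER+ mice, and the 5 adenoma libraries from small intestinal adenomas of VilCreER+ APCfl/+ mice, which carry 1 floxed and 1 normal allele of Apc. VilCreER is a Cre recombinase that the villin promoter drives in intestinal epithelium and that tamoxifen activates, and the labels state tamoxifen-induced recombination for both groups. The series' design text calls the adenoma mice aged and the wild-type tissue whole intestine, and the sources used here give no ages. Whether each library is a separate animal is not in the labels, so a p-value covers only how far these samples vary, which may be technical.

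Prostaglandin E2 is a short-lived lipid signal made from arachidonic acid. A phospholipase frees the fatty acid from membranes, a cyclooxygenase turns it into prostaglandin H2, and a prostaglandin E synthase makes the final product. The signal is ended by uptake into cells and oxidation there, and it acts through receptors at the cell surface, of which Ptger2 and Ptger4 raise cyclic AMP. Inhibitors of cyclooxygenases and loss of Ptgs2 are known to lower the number of intestinal polyps in Apc mutant mice. The comparison of adenoma with wild type asks how the RNA of each step differs. RNA was measured here and no prostaglandin was.

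Levels are given in CPM, counts scaled to the library size, and changes as log2 fold changes of adenoma over wild type ± SE. Total counts per library were 18040301 to 28343915, and the summed counts of a member in 1 library ran from 51 for Ptger2 to 4909 for Hpgd. Some libraries stood apart. Adenoma 2 held 245.5 CPM of Hoxb13, a hindgut gene, where the other 7 libraries had at most 0.894 CPM. Gata4, which marks duodenum and jejunum, stood at 0.470 CPM there against 68.4 to 100.8 CPM in the others. The Hoxb13 level, rather than that of Gata4, goes against the small intestinal label of this library. Its enterocyte markers summed to 46.3 CPM against 5678 to 9717 CPM in the other adenomas. Wild type 1 and adenoma 5 held pancreatic RNA, with 713 and 519.9 CPM of acinar markers against at most 3.85 CPM elsewhere. Xist was at most 1.75 CPM in wild type and in adenoma 1 and at least 432 CPM in adenomas 2 to 5, so this pattern and the group can be set apart only through adenoma 1. Apc was lower in adenoma, at 131.7 to 158.7 CPM against 190.7 to 211 CPM, and its counts cover the whole gene, so they do not measure recombination. The 7 pan-epithelial markers were present in every library, with sums of 5158 to 5670 CPM in wild type, against 5258 to 9620 CPM in the adenomas.

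All 10 members passed the filter on low counts. In adenoma, 3 rose (Ptgs2, Ptges and Ptger4) and 3 fell (Hpgd, Slco2a1 and Ptger2), while Pla2g4a, Ptgs1, Ptges2 and Ptges3 did not pass the test (quasi-likelihood fit of edgeR, p adjusted by Benjamini-Hochberg over 18345 genes, threshold 0.05). Of all genes tested, 58.1% were called, 30.3% as higher and 27.8% as lower, so the count of 6 called members is near the background. The median log2 fold change of the members was 0.06, beside 0.04 for all genes tested. Only Ptgs2 and Hpgd among the members changed by more than a factor of 2 in a test against that size, which 13.2% of all genes passed, 5.66% as higher and 7.52% as lower. The groups did not overlap for 6 members, 2 with adenoma above and 4 with adenoma below, where 56.9% of all genes had groups apart, 29.3% above and 27.6% below. The split of calls changed with the scaling. When the summed counts of pan-epithelial genes were made equal in all libraries, 15.7% of all calls were higher instead of 52.2%. The median of all genes moved to -0.50, and 1 member was called higher and 4 lower. With TMM, 4 of the 7 scaling genes were themselves called higher. Their log2 fold changes were 2.54 for Krt18, 1.16 for Krt19, 0.80 for Krt8 and 0.61 for Epcam. Cdh1 at 0.11, Cldn7 at -0.20 and Cdh17 at -0.52 were not called. Making this sum equal lowers other genes in adenoma by construction, so a call lost with it does not show an unchanged gene.

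**Figure D1:**
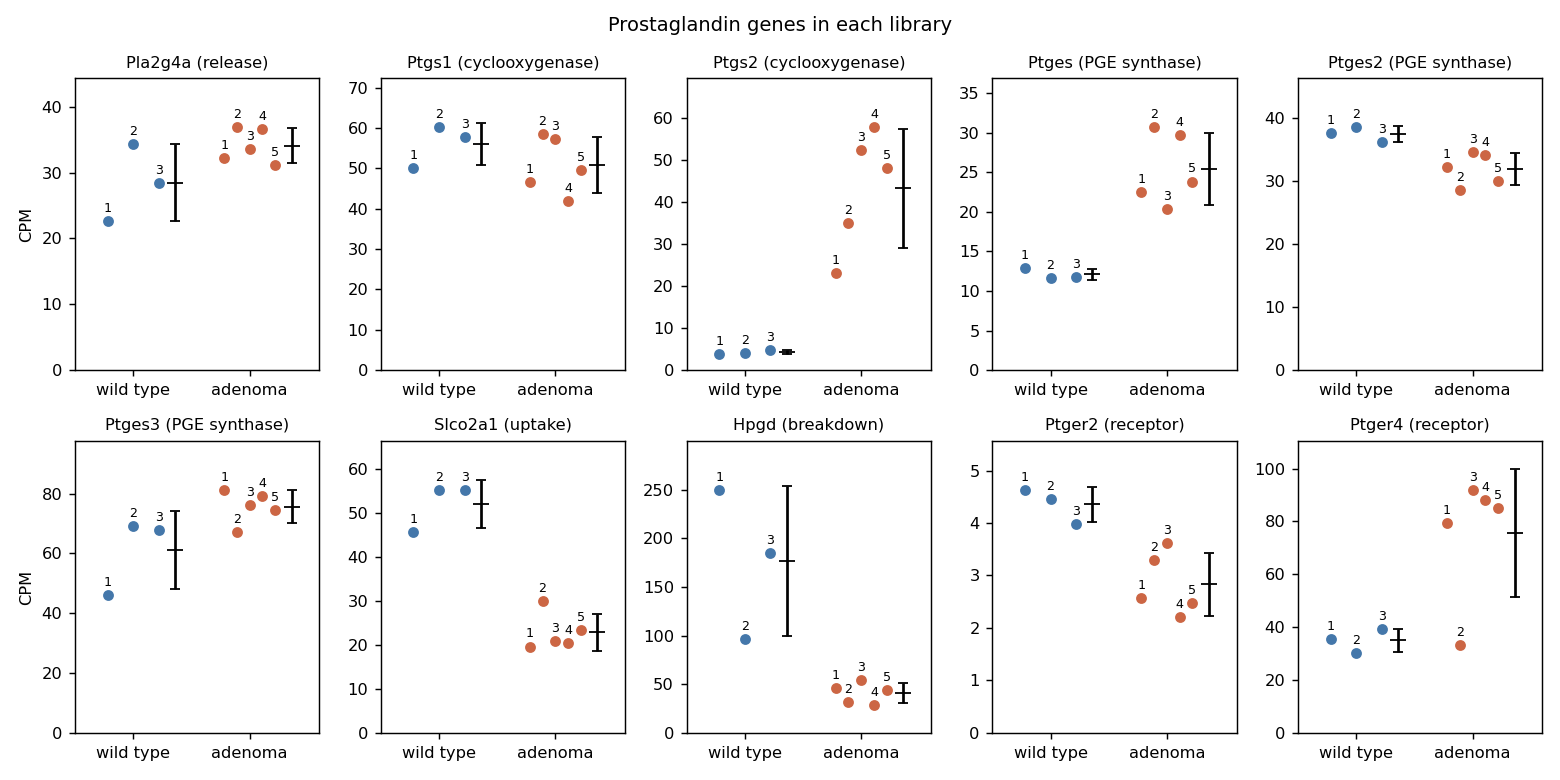
CPM of each of the 10 genes in the 3 wild-type (blue) and 5 adenoma (orange) libraries, numbered by replicate, with the mean and SD beside them. Each adenoma lies above each wild-type library for Ptgs2 and Ptges and below each for Hpgd, Slco2a1, Ptges2 and Ptger2, and adenoma 2 lies among the wild-type libraries for Ptger4.

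Pla2g4a, the member for the first step, did not pass the test, and genes of other phospholipases are described further below. Pla2g4a encodes cytosolic phospholipase A2 alpha, an enzyme that frees arachidonic acid from membrane lipids. It lies on GRCm38 chromosome 1, 149829618 to 149961290, minus strand. It stood at 22.7, 34.3 and 28.4 CPM in wild types 1 to 3 and at 32.3, 36.9, 33.5, 36.7 and 31.1 CPM in adenomas 1 to 5. The groups overlapped, since wild type 2 lay above 3 of the adenomas. Its log2 fold change was 0.26 ± 0.14 (edgeR adjusted p = 0.133), and 2 SE on either side of it reach from -0.01 to 0.53. It was called higher without wild type 2, at 0.42 (edgeR adjusted p = 0.0300), and with total-count scaling, at 0.35 (0.0491).

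The cyclooxygenases went apart. Ptgs1 encodes the form that most tissues make at all times, and Ptgs2 the form that cells make after growth factors, cytokines or injury. Ptgs1 (chromosome 2, 36230426 to 36252272, plus strand) stood at 50.1, 60.2 and 57.7 CPM in wild type and at 46.7, 58.5, 57.2, 42.0 and 49.6 CPM in adenoma. These ranges overlapped, with a log2 fold change of -0.14 ± 0.13 (edgeR adjusted p = 0.356) and 2 SE reaching from -0.39 to 0.11. A rise or fall of Ptgs1 by a factor of 2 lies outside that range, which depends on the scaling. With pan-epithelial scaling the log2 fold change was -0.66 ± 0.28, not called (edgeR adjusted p = 0.0788), and 2 SE below it reach past a fall by a factor of 2.

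Ptgs2 rose about 10.05-fold in mean CPM, the largest rise among the members. The gene (chromosome 1, 150100031 to 150108227, plus strand) starts 138.7 kb from the start of Pla2g4a, its divergent neighbour in the pathway. It stood at 3.92, 4.18 and 4.80 CPM in wild types 1 to 3 and at 23.03, 35.03, 52.2, 57.8 and 47.97 CPM in adenomas 1 to 5. Each adenoma lay above each wild-type library, from 5.35 times the wild-type mean in adenoma 1 to 13.4 times in adenoma 4. The log2 fold change was 3.33 ± 0.32 (edgeR adjusted p = 9.18e-05; 5.63e-04 against a factor of 2). It was the most variable member over the adenomas, with an SD of 32.5% of the mean, beside 10.5% in wild type. The call held in all 20 alternative fits, with values from 2.42 to 3.48. The lowest came from the fit with the Xist pattern as a covariate, whose estimate rests on adenoma 1 against the 3 wild-type libraries.

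The promoter windows of Ptgs2 and Ptges are shown because these are the 2 enzyme genes that rose, and that of Hpgd because it fell most. RefSeq windows on GRCm38.p6, from 250 bases before to 50 after the annotated start, were found for all 10 members, in 11 windows of 32851 in the table. Motifs were searched on both strands, and a match describes letters only. In Ptgs2 (chr1:150099781-150100080, plus strand) capitals mark TTGCGCAA, the C/EBP palindrome, at 69 bases before the start, and CGTCA, the reverse complement of the cyclic AMP response element core TGACG, from position 14. The first is in 0.183% of all windows and the second in 20.8%. The TGACG match overlaps an E box, CACGTG, which begins at position 17 and is in 7.15% of windows. In Ptges (chr2:30903248-30903547, minus strand) capitals mark 2 copies of the GC box GGGCGG, and 19.5% of windows hold at least 2. Both are part of the longer GTGGGCGG, which 0.441% of windows hold at least 2 times. The GC box was also found once each in Ptgs2 and Hpgd, where it is not in capitals. In Hpgd it is part of GTGGGCGG on the minus strand, letters that 4.81% of windows hold. In Hpgd (chr8:56294302-56294601, plus strand) capitals mark TATAAA, in 13.6% of windows, which lies after the RefSeq start of this window and before the start of the GENCODE gene model given below. The TCF/LEF letters CTTTGAT, in 3.73% of all windows, were found in no window of a member.
Ptgs2: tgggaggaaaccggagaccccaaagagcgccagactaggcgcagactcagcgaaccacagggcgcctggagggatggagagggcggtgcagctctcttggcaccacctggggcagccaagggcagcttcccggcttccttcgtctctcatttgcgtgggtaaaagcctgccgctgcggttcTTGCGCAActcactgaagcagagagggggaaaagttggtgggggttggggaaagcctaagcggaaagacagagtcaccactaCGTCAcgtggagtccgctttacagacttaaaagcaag
Ptges: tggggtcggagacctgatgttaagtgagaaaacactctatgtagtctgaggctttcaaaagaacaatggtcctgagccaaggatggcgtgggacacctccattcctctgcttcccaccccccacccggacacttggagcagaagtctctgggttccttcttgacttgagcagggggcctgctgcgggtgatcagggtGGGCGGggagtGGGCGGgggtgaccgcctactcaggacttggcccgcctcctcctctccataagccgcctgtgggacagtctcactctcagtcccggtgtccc
Hpgd: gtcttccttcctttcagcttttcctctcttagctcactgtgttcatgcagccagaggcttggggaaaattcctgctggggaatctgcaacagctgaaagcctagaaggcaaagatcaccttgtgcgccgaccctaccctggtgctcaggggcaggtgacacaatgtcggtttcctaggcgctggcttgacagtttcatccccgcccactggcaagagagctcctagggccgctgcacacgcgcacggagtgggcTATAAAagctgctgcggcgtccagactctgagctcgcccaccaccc

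Of the 3 prostaglandin E synthases, 1 rose. Ptges encodes the membrane-bound synthase, which is inducible and often made together with Ptgs2. Its gene model (chromosome 2, 30889471 to 30929863, minus strand) reaches upstream of the RefSeq start shown above. It stood at 12.9, 11.7 and 11.7 CPM in wild type and at 22.6, 30.7, 20.4, 29.7 and 23.8 CPM in adenoma. All 5 adenomas lay above all 3 wild-type libraries, and adenomas 2 and 4 were the highest. This gave a log2 fold change of 1.07 ± 0.16 (edgeR adjusted p = 5.82e-04), a mean ratio of 2.10, and it was not called larger than a factor of 2 (adjusted p = 0.524). With pan-epithelial scaling the call was lost at 0.57 (edgeR adjusted p = 0.163).

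The other synthases are made in most cells. Ptges2 (chromosome 2, 32395896 to 32405772, plus strand) encodes a membrane-associated synthase. It stood at 37.7, 38.6 and 36.2 CPM in wild type and at 32.2, 28.6, 34.7, 34.2 and 30.1 CPM in adenoma. Each adenoma lay below each wild-type library, but the log2 fold change of -0.23 ± 0.09 missed the threshold (edgeR adjusted p = 0.0529). It was called lower in 6 of 20 alternative fits, among them RLE scaling (-0.27; edgeR adjusted p = 0.0330), DESeq2 (adjusted p = 0.0209) and the fit without adenoma 3 (edgeR adjusted p = 0.0476). Ptges3 (chromosome 10, 128058954 to 128077272, plus strand) encodes p23, a cochaperone of Hsp90 that also has synthase activity. It stood at 46.1, 69.3 and 67.9 CPM in wild type and at 81.3, 67.1, 76.3, 79.3 and 74.4 CPM in adenoma. Adenoma 2 lay among the wild-type libraries, and wild type 1 was the lowest of all. Its log2 fold change was 0.31 ± 0.14 (edgeR adjusted p = 0.0850), with a call as higher without adenoma 2 (edgeR adjusted p = 0.0432) or with total-count scaling (0.0295), and a value of -0.26 under pan-epithelial scaling.

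Both members that remove prostaglandin E2, Hpgd and Slco2a1, were lower in adenoma. Hpgd encodes 15-hydroxyprostaglandin dehydrogenase, which inactivates the signal and is abundant in differentiated gut epithelium. The gene (chromosome 8, 56294585 to 56321043, plus strand) stood at 249.97, 96.4 and 185 CPM in wild types 1 to 3 and at 45.7, 31.7, 54.6, 28.6 and 44.5 CPM in adenomas 1 to 5. Wild type varied more than adenoma, yet its lowest library was still above the highest adenoma. The log2 fold change was -2.11 ± 0.31 (edgeR adjusted p = 7.30e-04; 0.0117 against a factor of 2), so that the wild-type mean was 4.32 times that of adenoma. All 20 alternative fits called it lower, with values from -2.67 to -1.77 and an adjusted p of up to 0.0462 with the Xist pattern as a covariate. The call was also made without wild type 1 and adenoma 5 together, at -1.81 (edgeR adjusted p = 0.00864), and without adenoma 2, at -2.04 (0.00266).

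The summed enterocyte markers were also lower in adenoma, at 16337 to 25155 CPM in wild type against 46.3 to 9717 CPM. Of the 6 genes, Anpep and Sis were called lower, a share near the 27.8% of all genes, and 4 were not called. For 4 of the 6, each adenoma lay below each wild-type library, as for 27.6% of all genes. These were Anpep, Sis, Fabp2 and Mttp, with Fabp2 at a log2 fold change of -2.64 ± 1.03 and Mttp at -1.99 ± 1.01. The groups overlapped for Apoa4, at -1.28, and for Alpi, at 1.19 ± 1.21. The median log2 fold change of the 6 was -2.31, beside 0.04 for all genes. None of the 6 was at 0 in any library, and their part in the lower Hpgd was not tested. The sum was lowest in adenoma 2, the library with Hoxb13 and little Gata4, and Hpgd was at 31.7 CPM there. In bulk tissue, fewer cells of a type and less RNA per cell cannot be told apart.

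Slco2a1 encodes the prostaglandin transporter, which carries the signal into cells ahead of its oxidation. It lies on chromosome 9, 102988712 to 103096002, plus strand. It stood at 45.6, 55.1 and 55.2 CPM in wild type and at 19.6, 30.0041, 20.9, 20.5 and 23.3 CPM in adenoma. Each adenoma lay below each wild-type library, and adenoma 2 was the highest of the 5. On the log2 scale it fell by 1.18 ± 0.15 (edgeR adjusted p = 2.74e-04), and all 20 alternative fits called it lower, from -1.67 to -1.09. The transporter is known from endothelium. Of 7 endothelial genes 5 were higher, beside 30.3% of all genes, while Kdr at -0.39 and Emcn at 0.08 were not called, with sums of 163 to 178 CPM in wild type against 259.8 to 322 CPM in adenoma, and none was at 0 in any library. Their part in the result for Slco2a1 was not tested.

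The receptors went in opposite directions. Both Ptger2 and Ptger4 couple to a stimulatory G protein and raise cyclic AMP. Ptger4 (chromosome 15, 5206661 to 5244187, minus strand) stood at 35.5, 30.3 and 39.2 CPM in wild types 1 to 3 and at 79.5, 33.3, 92.0, 88.2 and 85.2 CPM in adenomas 1 to 5. In 4 of 5 adenomas it was above every wild-type library, and in adenoma 2 it lay among them. The log2 fold change was 1.11 ± 0.31 (edgeR adjusted p = 0.0148), and without adenoma 2 it was 1.29 (edgeR adjusted p = 8.22e-06). The call was lost in 5 of 20 alternative fits at adjusted p from 0.0510 to 0.0959, among them the fit without wild type 2 (edgeR adjusted p = 0.0566) and that without wild type 1 and adenoma 5 (0.0854). Exons on the opposite strand share 1015 bases with it in the pseudogene Gm15937 and 82 bases in Ttc33, and reads there cannot be assigned without strand. Gm15937 had 0.461 ± 0.207 CPM in wild type against 0.165 ± 0.0743 CPM in adenoma. Ttc33 had 15.7 ± 1.76 CPM in wild type against 24.5 ± 2.55 CPM in adenoma.

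Ptger2 was the member with the fewest reads, at 51 to 91 counts per library. The gene (chromosome 14, 44988195 to 45003820, plus strand) stood at 4.63, 4.46 and 3.98 CPM in wild type and at 2.56, 3.29, 3.62, 2.21 and 2.47 CPM in adenoma. The groups did not overlap, although adenoma 3 came close to wild type 3. The log2 fold change was -0.62 ± 0.20 (edgeR adjusted p = 0.0265). The call was lost in 9 of 19 alternative fits, with an adjusted p of up to 0.211, among them those without wild type 1, wild type 2, adenoma 1 or adenoma 5. Of its exons, 246 bases overlap the antisense gene Gm17173, which had 0.485 ± 0.0752 CPM in wild type against 0.0712 ± 0.0654 CPM in adenoma.

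**Figure D2:**
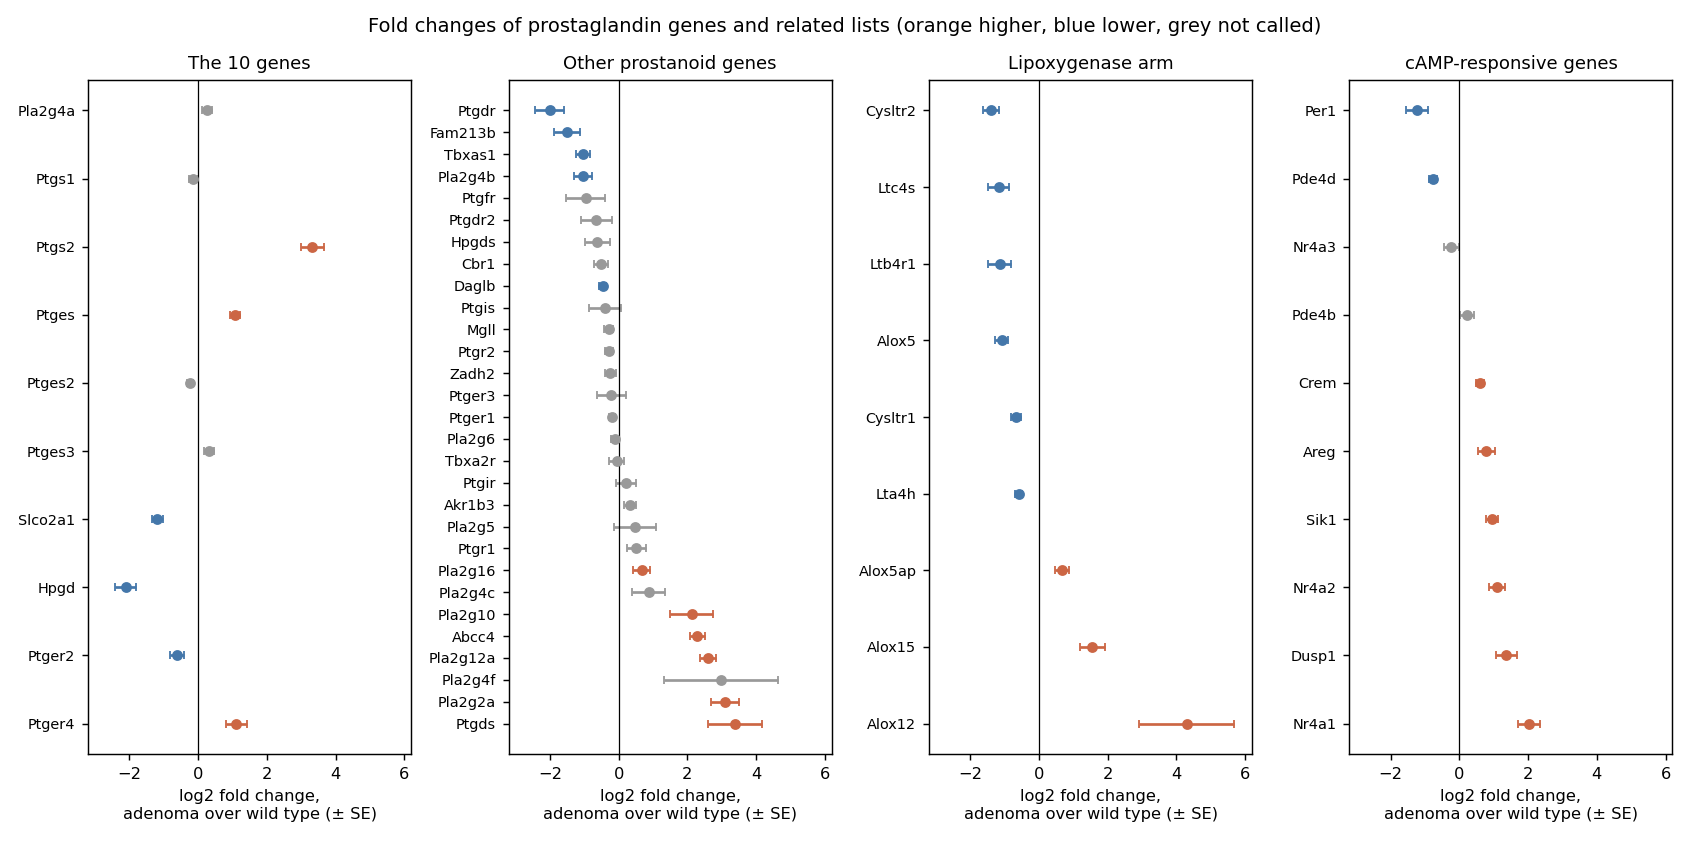
Log2 fold change of adenoma over wild type with its SE for the 10 genes, for 29 other prostanoid genes, for 9 genes of the lipoxygenase arm and for 10 genes that respond to cyclic AMP. Orange marks genes called higher, blue genes called lower and grey genes not called, and Ptgs2 at 3.33 and Hpgd at -2.11 are the ends of the first group.

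Levels of different genes were compared per kb of exon. In wild type Hpgd was highest among the members, at 105 ± 45.8 CPM per kb (SD, n = 3), ahead of Ptges3 at 27.6 ± 5.87, Ptgs1 at 14.4 ± 1.36 and Ptges2 at 7.42 ± 0.239. Next came Ptger4 at 5.27 ± 0.673, Pla2g4a at 4.46 ± 0.913 and Slco2a1 at 3.84 ± 0.408 CPM per kb. Ptger4 and Slco2a1 each lay within the spread of Pla2g4a. Ptges at 3.08 ± 0.171 followed, and Ptgs2 at 0.939 ± 0.0988 and Ptger2 at 0.839 ± 0.0649 CPM per kb were lowest and did not differ beyond their spread. In adenoma (n = 5) Ptges3 was highest, at 34.1 ± 2.47 CPM per kb, followed by Hpgd at 24.4 ± 6.36. Then came Ptgs1 at 13.1 ± 1.80, Ptger4 at 11.4 ± 3.63 and Ptgs2 at 9.43 ± 3.07 CPM per kb, each within the spread of its neighbour. Ptges at 6.47 ± 1.16 and Ptges2 at 6.32 ± 0.516 CPM per kb, which did not differ beyond their spread, and Pla2g4a at 5.33 ± 0.408 came after. Slco2a1 at 1.69 ± 0.312 and Ptger2 at 0.545 ± 0.115 CPM per kb were the lowest. The annotated exons of some genes include long retained introns, so the order of near neighbours depends on the length used. Per kb of the longest coding transcript, Ptger4 came to 22.8 CPM per kb in adenoma, above Ptgs1 at 17.7, and Pla2g4a to 11.9, above Ptgs2 at 9.70.

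Within a library, ratios between members do not depend on how libraries are scaled. The ratio of Ptgs2 to Ptgs1, per kb of exon, was 0.0664, 0.0588 and 0.0705 in wild types 1 to 3. In adenomas 1 to 5 it was 0.418, 0.508, 0.774, 1.17 and 0.820. Adenoma 4 was the only library in which Ptgs2 exceeded Ptgs1, and it did not with the length of the longest coding transcript, where the ratio was 0.885. The ratio of Ptgs2 to Hpgd was 0.00576, 0.0159 and 0.00953 in wild type and 0.185, 0.406, 0.352, 0.743 and 0.396 in adenoma. That of Ptges to Hpgd was 0.0221, 0.0520 and 0.0271 in wild type and 0.211, 0.415, 0.160, 0.446 and 0.229 in adenoma. Hpgd exceeded both synthesis genes in all 8 libraries, and by the smallest margin in adenoma 4. No test was made on these ratios, since the genes were chosen with earlier results known.

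**Figure D3:**
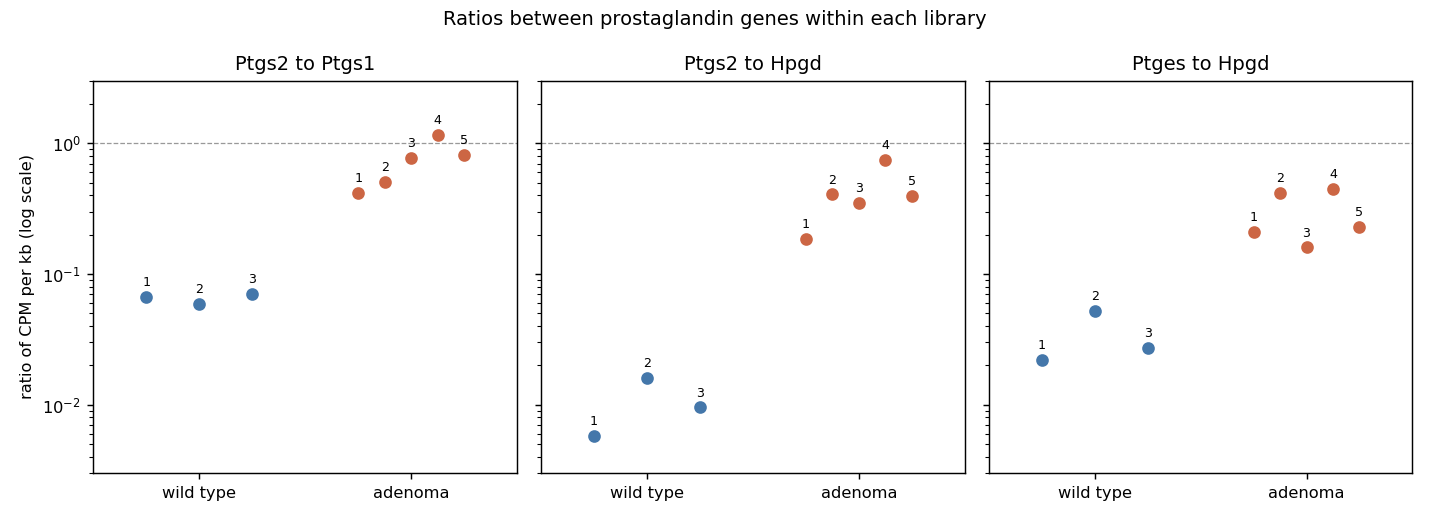
Ratio of CPM per kb of exon between pairs of genes in each library, on a log axis, with wild type in blue, adenoma in orange and the replicate number above each point. The dashed line marks equal levels, and for each of the 3 pairs all adenomas lie above all wild-type libraries.

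Of 29 other prostanoid genes, all tested, 6 rose and 5 fell, where 58.1% of all genes were called. Among the 6, Ptgds passed the filter on low counts through adenoma. With pan-epithelial scaling 4 of the 29 were higher and 11 lower. Their median log2 fold change was -0.18, beside 0.04 for all genes. Of the 11 lipase genes, 4 were higher and 2 lower, beside 30.3% and 27.8% of all genes, so the count of rises is near the background. Pla2g2a, a secreted phospholipase that is disrupted by a frameshift in the C57BL/6 strain, rose from 16.7, 19.01 and 23.4 CPM to 182, 62.5, 176, 219 and 198 CPM. All adenomas were above wild type and adenoma 2 was the lowest, with a log2 fold change of 3.09 ± 0.41 (edgeR adjusted p = 4.53e-04). Pla2g12a, another secreted phospholipase, rose from 10.4 ± 0.955 to 63.7 ± 15.3 CPM, and its log2 fold change was 2.61 ± 0.23 (edgeR adjusted p = 5.56e-05). Pla2g10 rose from 2.66 ± 0.124 to 11.7 ± 10.3 CPM, with 30.1 CPM in adenoma 2. Its call (edgeR adjusted p = 0.0190) was lost without any 1 of the wild-type libraries, at up to 0.0632. Pla2g16 was the other lipase gene called higher and Pla2g4b and Daglb were called lower, at log2 fold changes of 0.68, -1.04 and -0.47. Daglb lost its call with the Xist pattern as a covariate (edgeR adjusted p = 0.0740).

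Export and the other prostanoids gave fewer calls. Abcc4, a pump that exports prostaglandin E2 and other organic anions, rose from 13.1, 16.9 and 18.005 CPM to 87.1, 103.1, 63.3, 60.6 and 78.6 CPM. Its groups lay far apart, with a log2 fold change of 2.29 ± 0.21 (edgeR adjusted p = 6.21e-05; 8.22e-04 against a factor of 2). Ptgr1, Ptgr2 and Zadh2, which reduce prostaglandin metabolites further, were not called, at log2 fold changes of 0.51, -0.27 and -0.24. Tbxas1, which makes thromboxane, fell from 14.6 ± 2.65 to 7.06 ± 1.70 CPM, and Fam213b, a prostaglandin F synthase, from 55.7 ± 12.5 to 19.8 ± 8.72 CPM. The call of Fam213b was lost without wild type 1 and adenoma 5 (edgeR adjusted p = 0.0835) and with the Xist pattern as a covariate (0.231). Ptgds, a prostaglandin D synthase, had 3 counts in wild type and 73 in adenoma, and the ratio of depth-scaled counts was 11.6 (95% counting interval 3.80 to 57.3). With so few wild-type counts it passed the filter on low counts through adenoma, so its call is not read as a result. Its call was lost with the Xist pattern as a covariate (edgeR adjusted p = 0.145). Hpgds, Ptgis, Cbr1 and Akr1b3 were not called. Of the 7 other prostanoid receptors, Ptgdr alone was called, from 1.87 ± 0.632 to 0.462 ± 0.254 CPM (edgeR adjusted p = 0.00406; 0.0730 with the Xist pattern as a covariate). Ptger1, with 29.1 ± 0.563 and 25.6 ± 1.35 CPM, was not called (edgeR adjusted p = 0.0795), and Ptger3 stayed near 1 CPM in both groups.

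The lipoxygenase arm, the other fate of arachidonic acid, had all 9 of its genes called, 3 as higher and 6 as lower, where 58.1% of all genes were called, and the median of the log2 fold changes was -0.67. With pan-epithelial scaling 0 were higher and 6 lower, since Alox12, Alox15 and Alox5ap were not called. Genes of leukotriene synthesis and reception made up the 6 lower ones. Alox5, which starts leukotriene synthesis, fell from 6.29 ± 0.428 to 2.95 ± 0.603 CPM. Lta4h, which makes leukotriene B4, fell from 187 ± 17.4 to 124 ± 8.92 CPM (edgeR adjusted p = 0.00106). The synthase gene Ltc4s and the receptor genes Ltb4r1, Cysltr1 and Cysltr2 fell by 1.18, 1.15, 0.67 and 1.40 on the log2 scale. Without wild type 1 the calls of Ltc4s and Alox5ap were lost (edgeR adjusted p = 0.0543 and 0.0514), as was that of Ltb4r1 without wild type 2 (0.0673) or wild type 3 (0.0522). Alox5ap, which presents arachidonic acid to the Alox5 enzyme, rose by 0.67 ± 0.19 on the log2 scale. Alox15 rose from 1.79 ± 0.719 to 5.24 ± 1.82 CPM. Alox12 was at 1.12 to 1.78 CPM in wild type and at 9.93, 115, 11.9, 9.08 and 3.55 CPM in adenomas 1 to 5, so that adenoma 2 dominated its mean. Its call (edgeR adjusted p = 0.0296) was lost without any 1 wild-type library, at up to 0.0905. With the Xist pattern as a covariate, 1 of the 9 genes was called.

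Of 10 genes that respond to cyclic AMP, the messenger of Ptger2 and Ptger4, 6 rose and 2 fell, beside 30.3% and 27.8% of all genes, and the median log2 fold change was 0.68. They answer to other signals too. Nr4a1, an immediate early nuclear receptor, stood at 2.39, 1.95 and 2.73 CPM in wild type and at 5.13, 12.1, 12.3, 7.26 and 11.3 CPM in adenoma. Its groups did not overlap, and the log2 fold change was 2.03 ± 0.33 (edgeR adjusted p = 9.77e-04). Nr4a2 rose by 1.10 ± 0.24, Dusp1 by 1.37 ± 0.31, Sik1 by 0.95 ± 0.19 and Crem by 0.59 ± 0.12 on the log2 scale, with all adenomas above all wild-type libraries. Areg, a growth factor of the EGF family, rose by 0.78 ± 0.25 on the log2 scale (edgeR adjusted p = 0.0246), a call lost without wild type 1, wild type 2, adenoma 3 or adenoma 4, at up to 0.0946. The clock gene Per1 fell by 1.23 ± 0.32 and the phosphodiesterase gene Pde4d by 0.77 ± 0.12, while Nr4a3 and Pde4b were not called. Per1 lost its call without wild type 3 (edgeR adjusted p = 0.0576). With pan-epithelial scaling 1 of the 10 genes was higher and 2 lower, and with the Xist pattern as a covariate 3 were higher and 1 lower.

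Markers of other cell types were summed beside the members. Fibroblast markers summed to 1275 to 1693 CPM in wild type against 2826 to 3614 CPM in adenoma, with 5 of 7 genes higher, beside 30.3% of all genes. Neutrophil markers summed to 4.68 to 6.002 CPM against 13.9 to 88.6 CPM, with Ly6g at 0 in all wild-type libraries. Mast cell markers summed to 2.13 to 5.57 CPM against 43.3 to 139.97 CPM. Most genes of these last lists had so few wild-type counts that they passed the filter through adenoma, so no count of their calls is given. Macrophage markers overlapped, at 264 to 331 CPM against 229 to 637 CPM, with the highest sum in adenoma 2. Of the 7 genes, 1 was higher and 1 lower, beside 30.3% and 27.8% of all genes. Tuft cell markers, of a cell type known for Ptgs1 and Hpgds, summed to 66.4 to 88.4 CPM against 149 to 356 CPM. That sum rests on Avil, at 221 CPM in adenoma, since of the 7 tested genes 1 was higher and 1 lower, beside the same shares. Smooth muscle markers had 3 of 7 lower, beside 27.8% of all genes. Their sums overlapped, at 884 to 1595 CPM against 404 to 1010.1 CPM, and 1 of the 7 genes had groups apart. T cell markers had 5 of 6 lower, beside the same 27.8%, at 39.5 to 52.0 CPM against 9.11 to 16.5 CPM. The part of these cell types in the changes of Ptgs2, Ptges and Ptger4 was not tested.

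**Figure D4:**
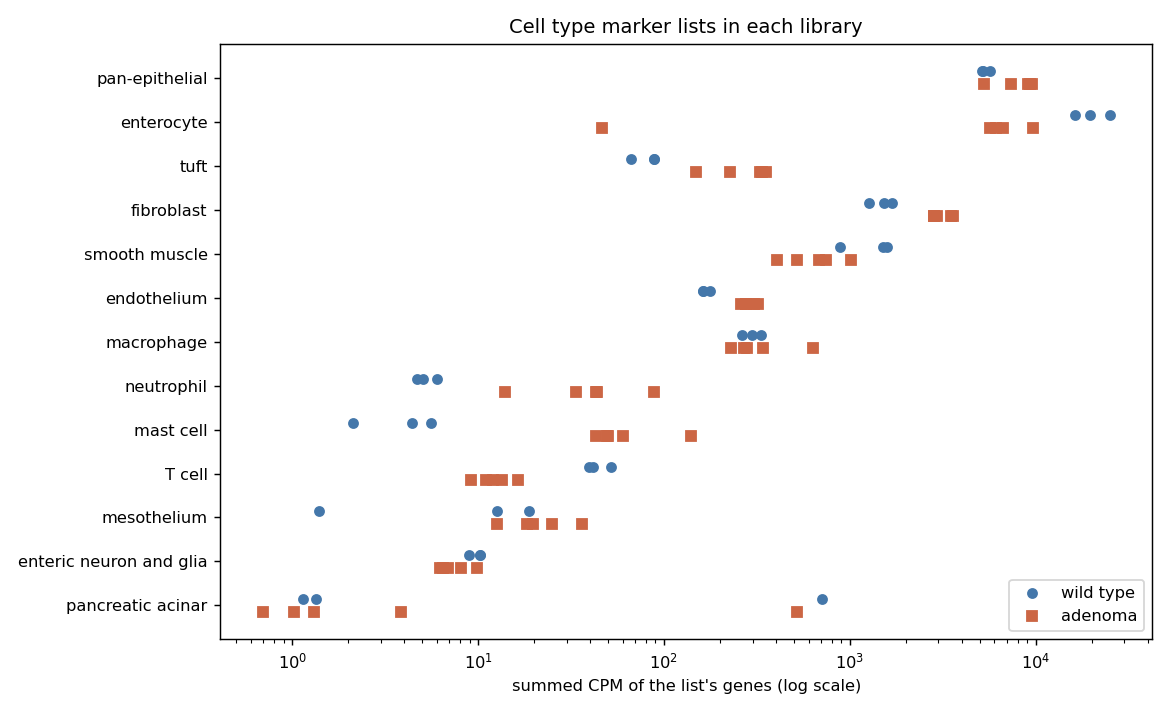
Summed CPM of each list of cell type markers in the 3 wild-type (blue circles) and 5 adenoma (orange squares) libraries, on a log axis. Fibroblast, endothelial, neutrophil, mast cell and tuft sums are higher in every adenoma than in every wild-type library, enterocyte and T cell sums are lower, and macrophage sums overlap.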

How the data were processed

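RNA of 3 wild-type and 5 adenoma tissue samples was made into TruSeq RNA v2 libraries, a kit that does not keep strand, and read as paired ends on an Illumina NextSeq, per the labels' protocols. The authors deposited raw counts per gene for 39179 Ensembl identifiers. FastQC, TopHat2, HTSeq and build GRCm38 are named, per the submitters' processing notes. For versions, annotation release and strand setting, the sources used here give nothing. Reads of overlapping genes on opposite strands therefore cannot be told apart.

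Symbols, positions and exon lengths came from GENCODE M21 on GRCm38, which matched 37607 identifiers. Counts were filtered with filterByExpr by group (18345 genes), scaled by TMM and tested with robust quasi-likelihood fits in edgeR 4.0.16 (R 4.3.3), with Benjamini-Hochberg adjustment over all genes. Sizes were tested against a factor of 2 with glmTreat. CPM values use TMM library sizes, and an SE is the log2 fold change divided by the square root of F. The common biological coefficient of variation was 0.28. Libraries of a group differed by more than sampling noise (chi-square per degree of freedom 20.1 to 149), so each counted as 1 replicate. The fit was tested on simulated data. Alternatives were 4 other scalings, 2 other filters, a replicate block, DESeq2 1.42.0, limma-voom (limma 3.58.1), leaving out each library, 1 pair or the ribosomal RNA genes, and the Xist pattern as a covariate. The lengths of coding transcripts were added after seeing the data.

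The members, gene lists, alternatives and tests were chosen with earlier results of these data known. All 10 members are described. Of each other list, the rule named up to 6 called genes with the smallest adjusted p and the leading gene of the minority direction, and the other genes named there, such as those not called, were chosen after their values were seen. Hoxb13, Xist, Ddx3y and Apc were named with earlier results known, and Ttc33, Gm15937 and Gm17173 because they overlap a member. Intervals of counts cover counting error only.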

Additional observations from a re-analysis of the deposited data

Results flagged for a closer look

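In 12 of 61 sets of 5 adenoma values, 1 library lay far from the other 4 by Dixon's test on CPM or ratios. Chance gives about 1 in 20 sets only if the values are normally distributed, which was not checked. The sets also share the same 5 libraries, so they are not independent. The library was adenoma 2 in 9 of the 12 sets and adenoma 1 in 3. Ptger4 was the only member among these sets, at 33.3 CPM in adenoma 2 against 79.5 CPM in the next lowest. Adenoma 2 was also lowest for Pla2g2a, at 62.5 CPM against 176 CPM in the next, for Ptgr1, at 71.0 CPM against 132 CPM, and for Ltb4r1, at 0.704 CPM against 1.86 CPM. It was highest for Pla2g4f, at 14.5 CPM against 0.576 CPM, for Alox12, at 114.9 CPM against 11.9 CPM, for Pla2g10, at 30.1 CPM against 8.77 CPM, for Hpgds, at 16.1 CPM against 7.82 CPM, and for Cysltr1, at 6.57 CPM against 5.15 CPM. Adenoma 1 was highest for Pla2g4c, at 7.64 CPM against 3.05 CPM, and for Pla2g5, at 36.1 CPM against 17.0 CPM, and lowest for Mgll, at 16.7 CPM against 22.9 CPM.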

How the results depend on the processing

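Over 20 alternative fits, Ptgs2, Hpgd and Slco2a1 kept their direction and their calls, Ptgs1 was never called, and Ptges lost its call in 1 fit. Pan-epithelial scaling turned Pla2g4a to -0.28 and Ptges3 to -0.26 on the log2 scale, neither of them called. It left 3 cyclic AMP-responsive genes called, and 4 of its 7 scaling genes were themselves called higher with TMM. All genes called fell from 10657 to 5372 with the Xist pattern as a covariate, with 1 lipoxygenase gene and 4 cyclic AMP-responsive genes called, and to 6549 with the replicate block. The filter of 5 CPM left 5 lipoxygenase genes, all called. Leaving out 1 library at a time gave 8664 to 12276 genes called, 5 to 7 members, 9 to 14 other prostanoid genes, 6 to 9 lipoxygenase genes and 7 to 8 cyclic AMP-responsive genes. The cause of these shifts was not tested, and some of the fits also used fewer genes or samples.

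Wild-type and adenoma libraries share replicate numbers 1 to 3, but same-numbered libraries did not deviate together, at correlations of -0.02, 0.05 and 0.06, and not every library correlated best with its own number. With the replicate block, where adenomas 4 and 5 add nothing, 4 members were called, and Ptger2 (edgeR adjusted p = 0.211) and Ptger4 (0.0510) were not, nor was Pla2g4b (0.0572). Depth limits Ptger2, with 51 to 91 counts, more than any other member. With 3 wild-type libraries the spread of that group is poorly known.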
